A study of Mus musculus with 12 samples.

Results

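The 92 protein-coding genes described here encode many, but not all, subunits of the respiratory chain and ATP synthase, and some assembly factors. They were chosen by symbol alone in the mm10 gene table, as every protein-coding gene whose symbol begins with Nduf, Uqcr, Atp5, Cox4, Cox5, Cox6, Cox7 or Cox8, out of 21900 protein-coding genes. A chromatin peak was assigned to a gene when its centre lay inside the gene's span or within 1 kb of it. Of the 222105 peaks in the joint list, 249 were assigned in this way. They belonged to 86 of the 92 genes, and no peak was shared by a pair of them.

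Accessibility was measured by bulk ATAC-seq, in which the Tn5 transposase cuts and tags open DNA, in mouse CD4+ T cells. Naive cells derived from spleen and draining lymph node (dLN) were cultured into a state labelled Th17Hom and were then kept for 2 days in control medium or with dexamethasone (Dex), a synthetic glucocorticoid. Both genotypes were labelled C57/B6, one being wild type (WT) and the other a conditional knockout for the glucocorticoid receptor (GR cKO). The promoter or cell type that drives the deletion was not given in the sources used here. The 4 groups, which were WT control, WT Dex, cKO control and cKO Dex, had 3 libraries each, made from 6000 sorted cells with 16 PCR cycles. The labels do not say whether libraries of a group came from separate animals, and the p-values below therefore describe the spread among libraries, which may be technical.

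The libraries held between 12988437 and 25081591 counts in peaks. Defining T cell loci were open, with the T cell list ranging from Cd5 at 11.5 to Cd3d at 62.9 CPM (read counts scaled to the size of the library, at the strongest peak of each gene). Of the Th17 list, Rora, Ccr6 and Il23r stood at 65.6, 35.3 and 31.6 CPM, Il17f at 13.0 and Il17a at 4.19. The lists of other cell types were mixed. Cd8a stood at 0.512 and Lyz2 at 0.884 CPM, and Ms4a1, Ncr1 and Hbb-bs had no listed peak, but Ebf1 of the B cell list stood at 41.4, Klf1 of the erythroid list at 21.6, the myeloid genes Spi1, Cd14 and Itgam at 16.5, 11.3 and 10.3, and Cd8b1 at 14.1 CPM. Summed over strongest peaks, the B cell list held 50.6 to 55.0 CPM in WT control, 46.2 to 52.7 in WT Dex, 46.9 to 59.9 in cKO control and 45.4 to 60.2 in cKO Dex, and the erythroid list 28.2 to 34.3 CPM in WT control, 31.3 to 36.8 in WT Dex, 26 to 27.2 in cKO control and 25.9 to 30.3 in cKO Dex. The myeloid list held 39.0 to 43.9 CPM in WT control, 42.3 to 46.5 in WT Dex, 39.8 to 43.0 in cKO control and 39.0 to 47.2 in cKO Dex, and the CD8 T and NK list 22.7 to 26.8 CPM in WT control, 23.0 to 28.3 in WT Dex, 21.4 to 27.5 in cKO control and 20.8 to 27.7 in cKO Dex. The erythroid sums were lower in every cKO library than in any WT library of the same treatment, and in control the T cell sums were too (267.6 to 287.5 against 290.9 to 301.4 CPM), and their part in the results below was not tested. The receptor gene, Nr3c1, had 19 peaks, 18 of them tested, and 0 were called in either genotype comparison by edgeR (smallest adjusted p = 0.501 in control and 0.380 in Dex). Its strongest peak held 60.2, 74.4 and 70.1 CPM in WT control and 52.3, 60.6 and 57.4 CPM in cKO control, so peaks at this gene do not check the genotype labels. Over all tested peaks Dex changed 1081 in WT and 6 in cKO (edgeR, adjusted p under 0.05), but 314 in cKO without the third cKO Dex library and 507 in WT without the first WT Dex library. The tested peaks were ranked once, by mean CPM over the 12 libraries. The share of a library's counts that lay in the top 10% of this common ranking is called the concentration share below. It was 60.6, 62.0 and 60.8% in WT control, 63.5, 63.4 and 60.8% in WT Dex, 57.9, 60.3 and 58.5% in cKO control, and 61.0, 61.6 and 58.1% in cKO Dex. The third library of each Dex group thus stood below its 2 partners.

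As background, the respiratory chain sits in the inner mitochondrial membrane. Complex I oxidises NADH, complex III passes electrons from ubiquinol to cytochrome c, complex IV reduces oxygen, and the ATP synthase (complex V) uses the proton gradient they build. Most of the subunits are encoded in the nucleus from short promoters rich in sites for NRF1, for ETS-family factors such as GABP, and for YY1. Activated T cells use this machinery beside glycolysis, and glucocorticoids act through the receptor whose gene is deleted in cells labelled cKO.

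The genes were grouped by role into complex I core subunits (7 genes), complex I accessory subunits (32), complex I assembly factors (8), complex III (8), complex IV ubiquitous isoforms (12), complex IV tissue-restricted isoforms (8) and complex V (17). Ndufa4 and Ndufa4l2 were placed with complex IV, where the NDUFA4 protein is now assigned. The 6 genes with no peak were Ndufb4b and Ndufb4c, both named as relatives of the complex I gene Ndufb4, and Cox6a2, Cox7b2, Cox8b and Cox8c, whose products replace ubiquitous complex IV subunits in muscle or testis. Thus 4 of the 8 tissue-restricted complex IV genes had no listed peak, against 0 of the 12 ubiquitous ones.

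The start regions of these genes are short and compact, and 7 of them are printed to show the motifs they carry and how they differ. Each run is 250 bases of RefSeq sequence (GRCm38.p6, the assembly behind mm10), from 220 bases before the annotated start to 30 bases from it, on the strand of the gene. Capitals mark the motifs searched, on either strand: NRF1 (gcgca and gcgc with 1 base between them), ETS (ccggaag), YY1 (aa and atggcggc with 1 base between them), the E-box (cacgtg), the CCAAT box (attgg) and a glucocorticoid response element (gnaca and tgtnc with 3 bases between them), where n and the bases between are any base. Cox6a1 and Atp5k were chosen because they carry both NRF1 and ETS motifs, Ndufs6 for an NRF1 motif close to the start, Ndufaf8 because it has the highest CPM of all members and carries ETS and YY1 motifs, Ndufv1 because it has the highest CPM per kb, and Cox7a1 and Cox7a2 as a tissue-restricted and a ubiquitous partner.
Cox6a1 (chr5:115348929-115349178, minus strand): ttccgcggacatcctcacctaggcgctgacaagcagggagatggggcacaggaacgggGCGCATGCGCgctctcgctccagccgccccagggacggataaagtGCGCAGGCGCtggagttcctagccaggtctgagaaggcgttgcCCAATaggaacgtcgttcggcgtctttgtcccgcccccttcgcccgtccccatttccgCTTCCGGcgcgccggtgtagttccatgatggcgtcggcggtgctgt
Atp5k (chr5:108434370-108434619, minus strand): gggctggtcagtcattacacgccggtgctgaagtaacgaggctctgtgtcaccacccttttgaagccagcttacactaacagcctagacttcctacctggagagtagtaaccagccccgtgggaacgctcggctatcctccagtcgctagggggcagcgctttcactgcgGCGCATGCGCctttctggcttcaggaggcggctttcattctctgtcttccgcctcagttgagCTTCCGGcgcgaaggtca
Ndufs6 (chr13:73328453-73328702, minus strand): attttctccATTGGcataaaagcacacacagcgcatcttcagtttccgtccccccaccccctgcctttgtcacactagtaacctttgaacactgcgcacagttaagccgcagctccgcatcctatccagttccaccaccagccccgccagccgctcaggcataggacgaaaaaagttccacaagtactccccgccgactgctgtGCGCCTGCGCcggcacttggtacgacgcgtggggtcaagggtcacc
Ndufaf8 (chr11:120098714-120098963, plus strand): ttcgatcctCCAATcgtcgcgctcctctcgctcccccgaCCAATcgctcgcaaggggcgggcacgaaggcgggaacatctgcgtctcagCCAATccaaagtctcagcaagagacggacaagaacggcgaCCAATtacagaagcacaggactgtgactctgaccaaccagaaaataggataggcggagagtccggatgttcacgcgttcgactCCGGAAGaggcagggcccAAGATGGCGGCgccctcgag
Ndufv1 (chr19:4012726-4012975, minus strand): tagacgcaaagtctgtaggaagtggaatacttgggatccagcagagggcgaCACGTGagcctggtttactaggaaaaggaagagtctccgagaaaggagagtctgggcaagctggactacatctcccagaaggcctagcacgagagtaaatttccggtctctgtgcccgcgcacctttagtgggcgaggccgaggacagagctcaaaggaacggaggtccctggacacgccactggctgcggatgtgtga
Cox7a1 (chr7:30183951-30184200, plus strand): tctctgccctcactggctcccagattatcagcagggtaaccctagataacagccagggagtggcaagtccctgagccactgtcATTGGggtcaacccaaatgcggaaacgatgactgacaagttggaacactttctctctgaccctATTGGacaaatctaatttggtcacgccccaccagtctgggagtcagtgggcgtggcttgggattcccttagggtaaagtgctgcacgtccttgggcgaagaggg
Cox7a2 (chr9:79759824-79760073, minus strand): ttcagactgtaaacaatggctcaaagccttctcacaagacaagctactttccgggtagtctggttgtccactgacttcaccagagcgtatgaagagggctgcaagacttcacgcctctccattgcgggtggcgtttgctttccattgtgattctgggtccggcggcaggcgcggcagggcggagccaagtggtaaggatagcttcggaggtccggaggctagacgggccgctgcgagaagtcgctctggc

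Start sequences were given for 75 of the 92 genes, and for 17492 protein-coding genes in all; those without an entry included Ndufa2, Ndufb9, Ndufb4c, Ndufaf6, Ndufs1, Uqcrq, Uqcrc2, Uqcrb, Ndufa4l2, Cox4i2, Cox6a2, Cox8c, Cox4i1, Cox6c, Atp5a1 and Atp5mpl. Motifs were counted in windows of 250 bases before to 50 bases after the start. The NRF1 motif was found in 17 of the 75 (22.7%), against 7.17% of all genes with a window. The ETS motif was found in 17 (22.7%), against 12.9%, and the YY1 motif in 5 (6.67%), against 1.63%. All 5 YY1 matches, in Ndufa9, Ndufs7, Ndufaf8, Ndufs6 and Ndufs4, lay between 11 and 46 bases after the start. Together, 34 of the 75 windows held an NRF1, ETS or YY1 motif, and 3 genes (Atp5k, Atp5h and Cox6a1) held both NRF1 and ETS. Cox6a1 carried 2 NRF1 motifs, as its printed sequence shows, and Ndufb4 carried 3. The E-box (8.0% of members, 8.91% of all genes) and the CCAAT box (42.7% and 42.3%) were about as frequent as in other genes, and the response element was found in 0 of the 75 windows and in 0.503% of all genes. No motifs of different kinds overlapped. Neighbouring CCAAT boxes of Atp5g1, at -95 to -91 and -92 to -88 bases from the start, did. Members with the NRF1 motif had a median of 15.3 CPM per kb at their strongest peak and those without it 15.6, and for the ETS motif the medians were 14.4 and 15.6. These are matches of letters only, with no binding measured.

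Among genes with a start entry, the strongest peak nearly always held the start. A gene's strongest peak, defined as the one with the highest mean CPM over the 12 libraries, held an annotated start in 68 of the 72 genes that had both a peak and a start entry, and 71 had some peak holding it. The exceptions among strongest peaks were Ndufb6, Ndufab1, Ndufs4 and Uqcrh. The strongest peak assigned to Ndufb6 lies 9596 bases from its start and holds the starts of Topors and Smim27, that of Ndufab1 lies 14438 bases away, and that of Ndufs4 lies 83344 bases away inside the gene. Uqcrh had no listed peak over its start, and its strongest peak had 3.96 CPM.

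Many of these starts are shared with a neighbour, so the signal belongs to 2 genes. The strongest peak held the start of another protein-coding gene in 23 cases. Examples are Atp5j with Gabpa, which encodes the DNA-binding subunit of GABP, Ndufb5 with the mitochondrial ribosome gene Mrpl47, Ndufa7 with the cytosolic ribosome gene Rps28, and Ndufs1 with the elongation factor gene Eef1b2. ATAC-seq cannot divide such a peak between the genes.

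The strongest peaks of the members had a median of 22.4 CPM, against 19.3 CPM over the 16844 protein-coding genes with a peak and 1.08 CPM over all peaks. Per kb of peak width the medians were 15.5 and 13.8 CPM. In 66 of the 86 genes (76.7%) the strongest peak was among the strongest 10% of tested peaks, against 62.9% of all genes with a peak. The other 163 member peaks had a median of 0.969 CPM, below the median of all peaks. In bulk samples a smaller fraction of cells with an open site and a less open site in every cell cannot be told apart. Within groups the coefficient of variation of the strongest peak was lowest for Ndufs6 (4.16%), had a median of 9.33%, and was highest for Cox7b (20.3%).

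**Figure D1:**
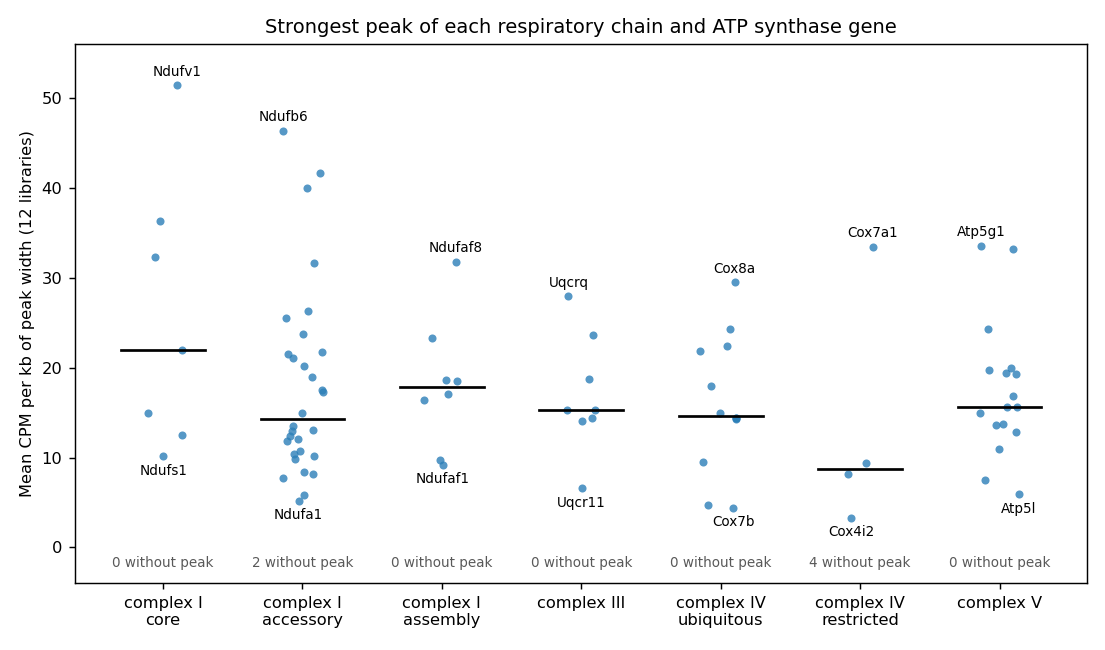
Accessibility of the strongest peak of each gene, as mean CPM per kb of peak width over the 12 libraries, by role; each point is 1 gene, the bar is the median of the role, and the highest and lowest genes are named. Ndufv1 at 51.4 is the highest and Cox4i2 at 3.29 the lowest; 2 accessory and 4 restricted genes have no peak and no point.

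Among the complex I core subunits, Ndufv1, which carries the NADH-binding flavin site, was the highest at 51.4 CPM per kb, and Ndufs1, the largest iron-sulfur subunit, the lowest at 10.1 CPM per kb, around a role median of 21.9. Ndufv1 held 58.1, 60.6 and 57.2 CPM in WT control, 62.4, 57.3 and 51.3 in WT Dex, 49.1, 54.0 and 44.5 in cKO control, and 55.3, 56.9 and 49.7 in cKO Dex. Its cKO control libraries were all below its WT control libraries. The genotypes overlapped under Dex, and Dex and control overlapped in each genotype. Accessory subunits ranged from Ndufa1 at 5.22 CPM per kb, whose peak also holds the start of Rnf113a1, to Ndufb6 at 46.4 CPM per kb, whose peak belongs to neighbouring starts as given above. The assembly factors, which build complex I and are not part of it, ranged from Ndufaf1 at 9.22 to Ndufaf8 at 31.8 CPM per kb.

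Complex III ran from Uqcr11 at 6.56 to Uqcrq at 27.9 CPM per kb, both small accessory subunits. Ubiquitous complex IV subunits ran from Cox7b at 4.39 to Cox8a at 29.5 CPM per kb, and complex V from Atp5l (subunit g) at 5.89 to Atp5g1 (subunit c of the rotor) at 33.5 CPM per kb. The role medians of complex III, ubiquitous complex IV, complex V and the accessory subunits lay close together at 15.3, 14.7, 15.7 and 14.2 CPM per kb. Within each role the genes differed more than the role medians did.

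Isoform pairs gave a mixed order. Cox4i1, the ubiquitous form of the regulatory complex IV subunit, was at 18.0 CPM per kb and Cox4i2, the form known from lung and hypoxic cells, at 3.29, a 5.46-fold difference in the same direction in 12 of 12 libraries. The opposite held for the subunit 7a pair, in which Cox7a1, known from heart and muscle, was at 33.5 CPM per kb and Cox7a2, the ubiquitous form, at 22.4, with Cox7a1 1.49-fold higher in mean and higher in 12 of 12 libraries. In CPM, Cox7a1 held 26.7, 31.2 and 29.4 in WT control, 28.8, 28.6 and 27.6 in WT Dex, 24.7, 26.6 and 28.6 in cKO control, and 32.0, 32.0 and 26.2 in cKO Dex. An open start is not a measure of transcription, and no RNA was analysed here. Cox6b1 (9.48 CPM per kb) and its testis-expressed partner Cox6b2 (9.34) did not separate, each being the higher one in 6 libraries. Ndufa4 was 1.76-fold above its paralogue Ndufa4l2 (14.4 and 8.18 CPM per kb), and higher in 12 of 12 libraries. Of the 3 genes that encode the identical mature c subunit of ATP synthase, Atp5g1 was at 33.5, Atp5g2 at 19.9 and Atp5g3 at 13.8 CPM per kb, in that order in 12 of 12 libraries for each pair.

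Dex in WT cells asks what glucocorticoid does to these genes when the receptor is present. Of the 231 member peaks tested, 1 was called by edgeR (adjusted p under 0.05) and it rose, against a background of 0.534% of all tested peaks called in this comparison and 0.42% called higher. It was not a start. It lies inside Ndufa12, which encodes an accessory subunit of complex I, at chr10:94211741-94212046, with its centre 12858 bases from the start. The peak held 0.458, 0.542 and 0.412 CPM in WT control and 2.58, 2.34 and 1.70 CPM in WT Dex. The cKO control libraries held 0.600, 0.678 and 1.10 CPM and the cKO Dex libraries 0.691, 0.905 and 1.11 CPM. All 3 WT Dex libraries thus stood above the other 9, and the cKO groups overlapped each other. It is a small peak, with 6, 11 and 10 reads in WT control and 41, 42 and 30 in WT Dex. The log2 change was 2.22 ± 0.41 (SE, n = 3 against 3), a 4.65-fold rise, with an edgeR adjusted p of 0.000865.

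In cKO cells the same Ndufa12 peak had a log2 change with Dex of 0.19 (edgeR adjusted p = 0.973). The difference between the 2 Dex effects was 2.03 ± 0.59 on the log2 scale and did not pass over all peaks (edgeR interaction, adjusted p = 0.473), so the effect is not shown to differ between genotypes. Between genotypes under Dex the peak was lower in cKO by a log2 difference of -1.30 ± 0.37, also without passing (edgeR adjusted p = 0.171). The start peak of Ndufa12, at 26.7 CPM, had a Dex log2 change of 0.15 in WT and -0.07 in cKO, so the start did not follow the inner peak. With DESeq2 the inner peak had a log2 change of 2.24 but received no adjusted p, which left 0 called member peaks.

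**Figure D2:**
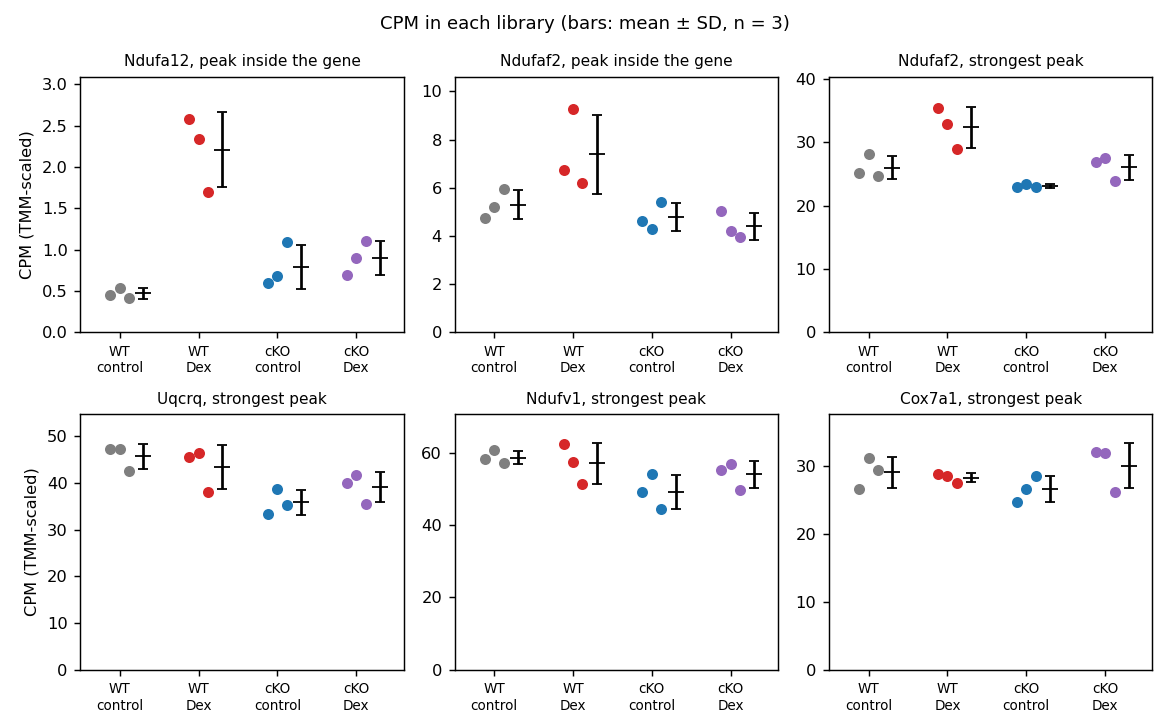
CPM (TMM-scaled, vertical axis from 0) in each library for 6 member peaks; points are libraries by group, and bars show the mean ± SD of the 3. The peak inside Ndufa12 is at 1.70 to 2.58 CPM in WT Dex and at most 1.11 elsewhere, the cKO control libraries of Uqcrq and Ndufv1 lie below the WT control libraries, and the groups overlap for Cox7a1.

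The strongest peaks as a group moved little with Dex in WT. Of the 86 strongest peaks 0 were called, while 5 had an unadjusted p under 0.05, all higher (edgeR; DESeq2 also called 0 member peaks, on a DESeq2 background of 0.641%). These 5 are 5.81% of the 86, and over all genes' strongest peaks the share was 9.19%. The median log2 change was 0.09 with edgeR's trimmed-mean (TMM) scaling over the 86 and -0.01 when the concentration share was a covariate, and 72 of 86 were above 0 with TMM against 42 with the covariate. For comparison the median was 0.08 over the strongest peaks of all protein-coding genes, of which 71.6% were above 0. It was 0.09 over the 77 distinct strongest peaks of the 78 mitochondrial ribosome genes, which encode subunits of the ribosome that translates mitochondrial messages. Shares given below for this family are shares of these peaks. In 8 members (9.30%) the 3 WT Dex libraries all exceeded the 3 WT control libraries, against 6.96% of all tested peaks and 10.3% of all genes' strongest peaks, and in 0 were they all below (6.9% of all tested peaks). Those 8 were Ndufc1, Ndufs4, Ndufa8, Ndufaf6, Ndufaf2, Ndufs7, Atp5g2 and Atp5o.

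The highest Dex value in WT among strongest peaks was that of Ndufaf2, an assembly factor of a late step of complex I. Its start, in a peak shared with the DNA repair gene Ercc8 at chr13:108157791-108159367, held 25.2, 28.1 and 24.7 CPM in WT control and 35.4, 32.8 and 28.9 CPM in WT Dex. The cKO libraries held 23.0, 23.4 and 22.9 CPM in control and 26.8, 27.5 and 23.8 CPM with Dex. Ndufaf2 was the single member whose Dex libraries stood above the controls in both genotypes, yet the log2 change of 0.31 ± 0.11 in WT did not pass (edgeR adjusted p = 0.279). The lowest p among falling values was at an inner peak of Ndufs3, a core subunit of the arm that meets the matrix, at chr2:90903498-90903896. This peak held 3.05, 2.71 and 3.51 CPM in WT control and 2.40, 1.67 and 1.53 CPM in WT Dex, a log2 value of -0.74 ± 0.27 (edgeR adjusted p = 0.325). Without the third WT Dex library the median over strongest peaks was 0.16 in place of 0.09, and without the first it was 0.05.

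In cKO cells Dex had 0 called member peaks of 231, by edgeR on a background of 0.00296% and by DESeq2 on one of 0.00494%. At an unadjusted p under 0.05 there were 9 (3.90%), against 5.84% of all tested peaks (edgeR). Without the third cKO Dex library, where 314 peaks were called in all, the called member peaks were still 0. Even so, the strongest peaks stood as far above 0 as in WT, with a median log2 change of 0.12 under TMM and 0.03 with the covariate. Under TMM 76 of 86 (88.4%) were above 0, against 75.5% of all genes' strongest peaks. The share was 84.0% of the strongest 10% of tested peaks and 93.5% of the mitochondrial ribosome genes, which had a median of 0.14. Among the roles, all 17 complex V genes, 12 ubiquitous complex IV genes, 8 complex I assembly factors and 7 core subunits were above 0 under TMM (medians 0.17, 0.19, 0.12 and 0.11), and 12, 9, 4 and 6 of them were with the covariate (0.07, 0.08, 0.03 and 0.03). Over all genes' strongest peaks the median was 0.09. In 10 members (11.6%) the cKO Dex libraries all exceeded the cKO controls, against 5.28% of all tested peaks and 9.63% of all genes' strongest peaks. Among the mitochondrial ribosome genes the share was 13.0%.

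The 3 member peaks with the smallest p for Dex in cKO were in Ndufb4, Ndufaf5 and Cox6b1, and none passed. The start peak of Ndufaf5, an assembly factor that hydroxylates a core subunit, is shared with Esf1 (chr2:140169985-140171206) and held 9.60, 9.45 and 10.0 CPM in cKO control and 13.6, 12.8 and 12.1 CPM in cKO Dex. The groups did not overlap, and the log2 change was 0.41 ± 0.15 (edgeR adjusted p = 0.838). An inner peak of Ndufb4 (chr16:37653069-37653355) had a value of 1.46 ± 0.44 and the Cox6b1 start peak (chr7:30625691-30626362) one of 0.45 ± 0.18 on the same scale, with edgeR adjusted p-values of 0.783 and 0.838. Without the third cKO Dex library the median over strongest peaks was 0.20 in place of 0.12.

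The 2 Dex effects were compared directly by the interaction term. It called 0 of the 231 member peaks by edgeR on a background of 0.0276% and 0 by DESeq2 on one of 0.0405%. At an unadjusted p under 0.05 there were 13 (5.63%), against 5.65% of all tested peaks (edgeR). The median difference over strongest peaks, Dex in WT minus Dex in cKO, was -0.03, with 34 genes above 0 and 52 below, and it ranged from -0.13 to 0.03 when single libraries were left out. Beside Ndufa12, the smallest p-values belonged to a peak of Cox7a2l, which encodes a factor that joins complexes III and IV into a supercomplex, at chr17:83515162-83515501 (-0.94 ± 0.36, edgeR adjusted p = 0.765). The other was a peak of Ndufa4l2 at chr10:127515179-127516423 (1.49 ± 0.56, edgeR adjusted p = 0.768). No difference between the genotypes in the Dex response was detectable at the starts of these genes with 3 libraries a group.

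**Figure D3:**
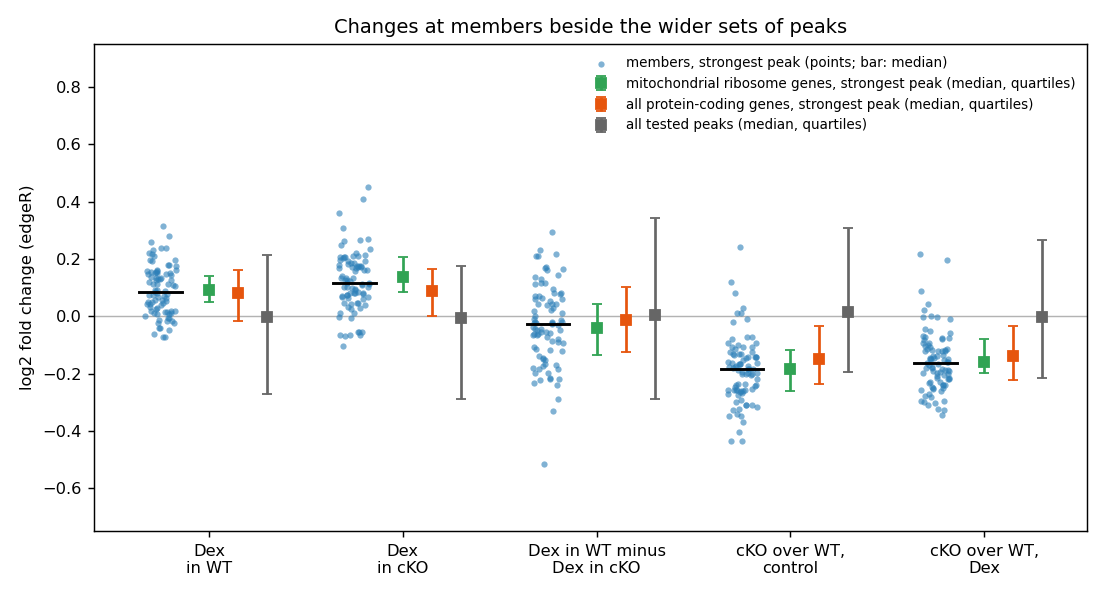
log2 changes (edgeR, TMM scaling) in the 5 comparisons; blue points are the strongest peaks of the 86 members with their median as a bar, and squares with whiskers are medians and quartiles of the mitochondrial ribosome genes, of all genes' strongest peaks and of all tested peaks. The member medians of 0.09, 0.12, -0.03, -0.18 and -0.16 lie beside those of all genes' strongest peaks at 0.08, 0.09, -0.01, -0.15 and -0.14; with the concentration share as a covariate the median for Dex in WT is -0.01.

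The genotypes without Dex were compared next, which asks what loss of the receptor does under culture conditions alone. The strongest peaks of the respiratory genes were mostly lower in cKO, but none passed the edgeR test. Of the 231 member peaks 0 were called by edgeR, on a background of 0.0104%. DESeq2 called 1, at Uqcrq, on a background of 0.243%, which is 493 peaks where edgeR called 21. At an unadjusted p under 0.05 there were 38 (16.5%), against 7.69% of all tested peaks (edgeR). Among the 86 strongest peaks 80 were below 0, the median log2 difference was -0.18 under TMM, and 26 (30.2%) had an unadjusted p under 0.05, all lower, against 22.0% of all genes' strongest peaks. In 37 genes (43.0%) the cKO control libraries all lay below the WT control libraries. In 0 they all lay above, against 6.91% of all tested peaks and 1.87% of all genes' strongest peaks. They all lay below in 7.6% of all tested peaks, 29.2% of all genes' strongest peaks, 28.8% of the strongest 10% of peaks and 37.7% of the mitochondrial ribosome genes. Strong peaks in general thus lay in the same direction. Over all genes' strongest peaks the median was -0.15 and 80.2% were below 0. Over the mitochondrial ribosome genes the median was -0.18 and 96.1% were below 0.

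By role, the 37 genes were 9 of 30 accessory subunits, 4 of 7 core subunits, 6 of 8 assembly factors, 4 of 8 complex III genes, 5 of 12 ubiquitous and 0 of 4 restricted complex IV genes with a peak, and 9 of 17 complex V genes. Role medians of the log2 difference ran from -0.25 in complex III and -0.24 in the complex I core to -0.14 in the restricted complex IV genes under TMM, and from -0.15 in complex III to -0.02 in the assembly factors with the covariate. The 6 genes above 0 were Ndufab1, Ndufc2, Ndufs4, Ndufa1, Uqcrc2 and Ndufa4l2, with Ndufs4 the highest at 0.24, at the inner peak given above.

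The smallest p in this comparison was at the peak over one end of the span of Uqcrq, a small subunit of complex III, at chr11:53430253-53431721. It held 47.2, 47.3 and 42.5 CPM in WT control and 33.4, 38.8 and 35.4 CPM in cKO control. With Dex it held 45.6, 46.5 and 38.1 CPM in WT and 40.1, 41.8 and 35.5 CPM in cKO. The control groups did not overlap and the Dex groups did, and the log2 difference in control was -0.35 ± 0.11 (edgeR adjusted p = 0.406; DESeq2 adjusted p = 0.0354). Ndufv3, an accessory subunit of the NADH-oxidising module, had the same size of difference at its start, chr17:31519426-31521255, with 39.6, 38.0 and 36.1 CPM in WT control and 28.0, 32.2 and 29.1 CPM in cKO control (-0.35 ± 0.11, edgeR adjusted p = 0.446). An inner peak of Cox7a2l (chr17:83509063-83509427) had -1.25 ± 0.39 (edgeR adjusted p = 0.423).

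Between genotypes under Dex, 0 of the 231 member peaks were called by edgeR, on a background of 0.17%, and 0 by DESeq2, on one of 0.244%. At an unadjusted p under 0.05 there were 29 (12.6%), against 8.35% of all tested peaks (edgeR). The smallest adjusted p, 0.0592, was at a peak inside Ndufaf2 at chr13:108071808-108072520, with its centre 86461 bases from the start. It held 6.74, 9.26 and 6.18 CPM in WT Dex and 5.04, 4.22 and 3.96 CPM in cKO Dex, against 4.73, 5.22 and 5.94 CPM in WT control and 4.62, 4.28 and 5.42 CPM in cKO control. The Dex groups did not overlap and the control groups did, and the log2 difference under Dex was -0.74 ± 0.18. This peak passed with loess offsets by level in place of TMM (edgeR adjusted p = 0.0182), with the replicate number as a block (0.0280) and without the third WT Dex library (0.0329). Over all tested peaks these fits called 988 of 202587, 1017 of 202587 and 454 of 213939. The second peak in order, in this comparison, was that inside Ndufa12 given above. The start peak of Ndufb5 (chr3:32736212-32737719, shared with Mrpl47) came next, with 70.0, 74.8 and 59.5 CPM in WT Dex and 59.7, 57.6 and 48.1 CPM in cKO Dex, a log2 difference of -0.30 ± 0.10 (edgeR adjusted p = 0.299).

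Of the 86 strongest peaks, 80 were again below 0 under Dex, with a median of -0.16 under TMM and 17 at an unadjusted p under 0.05, all lower. These shares, 93.0% and 19.8%, stand against 80.0% and 19.7% of all genes' strongest peaks, and 92.2% and 14.3% of the mitochondrial ribosome genes. The cKO Dex libraries all lay below the WT Dex libraries in 20 genes (23.3%), against 6.2% of all tested peaks and 15.6% of all genes' strongest peaks. They all lay above in 1 gene, Ndufa9, against 6.48% of all tested peaks and 1.93% of all genes' strongest peaks. Over all genes' strongest peaks the median was -0.14. Without the third cKO Dex library the member median was -0.07, and without the third WT Dex library -0.22, so the size under Dex rests on these libraries.

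In 12 genes the cKO libraries lay wholly below the WT libraries both in control and in Dex, which is 32.4% of the 37, 60.0% of the 20 and 13.95% of the 86. Over all genes' strongest peaks the same shares were 21.2%, 39.6% and 6.19%, and the differences in share were not tested. These 2 comparisons use different libraries. The 12 were Ndufs8 and Ndufv2 of the complex I core, the accessory subunit Ndufb10, the assembly factors Ndufaf2 and Ndufaf8, Cox4i1 and Ndufa4 of complex IV, and Atp5b, Atp5g1, Atp5g2, Atp5j and Atp5o of complex V. Atp5g1 held 65.0, 68.4 and 66.7 CPM in WT control, 76.0, 72.8 and 67.9 in WT Dex, 54.5, 57.1 and 54.2 in cKO control, and 62.2, 66.1 and 52.2 in cKO Dex. Cox4i1 held 25.9, 28.4 and 25.1 CPM in WT control, 25.5, 28.6 and 25.1 in WT Dex, 21.2, 22.0 and 20.2 in cKO control, and 24.7, 25.0 and 18.1 in cKO Dex. For Cox4i1 the highest cKO Dex library was only just below the lowest WT Dex library. Atp5b, the catalytic beta subunit, held 43.7, 46.5 and 44.0 CPM in WT control, 55.0, 50.4 and 44.8 in WT Dex, 38.2, 41.1 and 39.2 in cKO control, and 44.6, 42.6 and 35.1 in cKO Dex. None of the 12 passed the edgeR test, as given above.

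The summed level of the members was set beside the concentration share of each library. Summed over the strongest peaks of the 86 genes, CPM were 2186, 2386 and 2246 in WT control (2273 ± 102, SD, n = 3), 2561, 2492 and 2208 in WT Dex (2420 ± 187), 1938, 2084 and 1975 in cKO control (1999 ± 76.2), and 2260, 2254 and 1929 in cKO Dex (2147 ± 190). The lowest sums were in libraries with the lowest concentration share, and the third library of each Dex group was the lowest of its group on both. In control, the concentration share was below that of every WT library in all 3 cKO libraries, and the summed level was too.

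**Figure D4:**
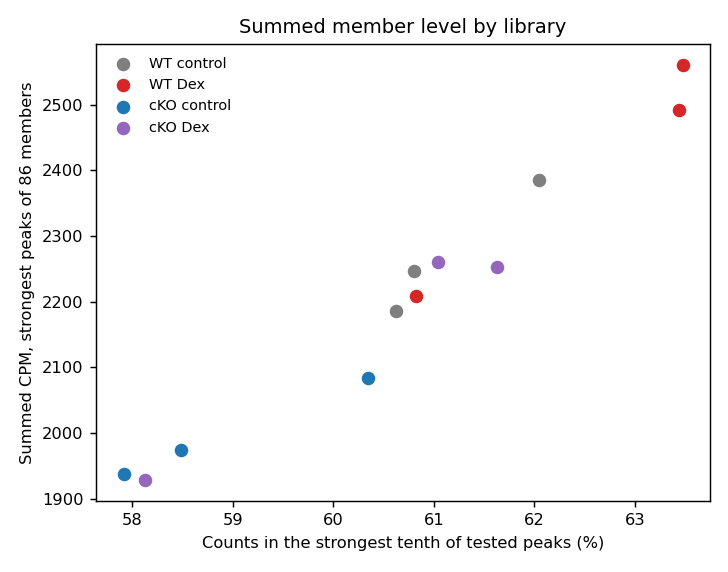
Summed CPM of the strongest peaks of the 86 genes in each of the 12 libraries, against the percentage of that library's counts in the strongest 10% of tested peaks; each point is 1 library, coloured by group. Libraries run from cKO control libraries 1 and 3 and the third cKO Dex library at the lower left (57.9 to 58.5%) to 2 WT Dex libraries at the upper right (63.4 and 63.5%). Of the 86 summed peaks, 66 lie within that 10%, so the axes are not independent.

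The size of the median genotype difference depended on the scaling, and its sign did not among those run. In control it was -0.18 with TMM, -0.11 with total counts, -0.075 with loess offsets by level and -0.053 once the concentration share entered as a covariate, with 68 of 86 genes below 0 for loess and 59 for the covariate. Under Dex the values were -0.16, -0.087, -0.065 and -0.0095, with 66 and 44 of 86 below 0 in the last 2. Medians over all tested peaks, in the same order of fits, were 0.014, 0.092, 0.0081 and -0.0086 in control. Under Dex they were -0.0010, 0.075, -0.0019 and -0.020. With the covariate under Dex, the members thus lay above the median of all tested peaks, and the mitochondrial ribosome genes were at 0.0088. Beyond these fits, the part of the concentration share in the genotype difference was not tested.

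**Figure D5:**
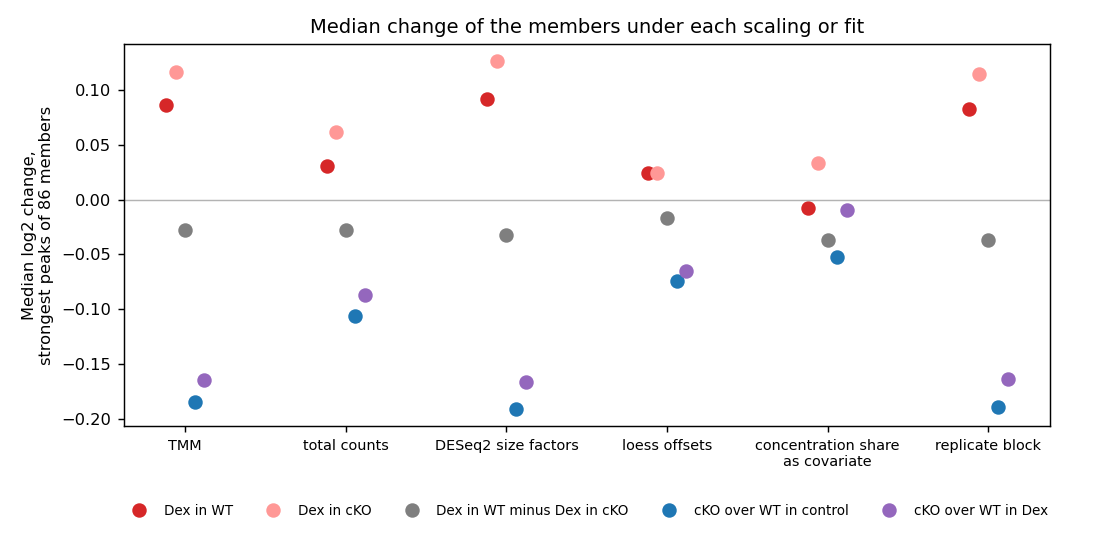
Median log2 change over the strongest peaks of the 86 members in the 5 comparisons (colours) under 6 scalings or fits (horizontal axis); each point is 1 median and no error is drawn. The genotype medians move from -0.18 and -0.16 with TMM to -0.053 and -0.0095 with that share as a covariate, and the median for Dex in WT from 0.09 to -0.01.

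Lists outside the symbol rule comprised complex II (8 genes), electron carriers and complex III factors (12), complex IV assembly (21), complex I assembly (9 of 10 found in the gene table), complex V assembly (3), mitochondrial transcription and biogenesis (16) and the mitochondrial ribosome (78). All 146 genes found had a peak, and edgeR with TMM called 0 of their 529 tested peaks in any of the 5 comparisons. Other edgeR fits called a few. For Dex in WT these were 4 peaks with the covariate (Lyrm7, Nrf1 and Ppargc1a), 3 with loess offsets (Cox10 and Ppargc1a) and 1 with total counts (Ppargc1a). Over all 202587 tested peaks these fits called 2244, 2135 and 1757 for Dex in WT. Between genotypes under Dex there were 3 with the covariate (Mrpl33 and Nrf1) and 2 with loess offsets (Cox10 and Nrf1), where these fits called 1797 and 988 of all tested peaks. At an unadjusted p under 0.05 there were 39 for Dex in WT, 36 for Dex in cKO, 28 for the interaction, 90 between genotypes in control and 71 under Dex with TMM. These are 7.37, 6.81, 5.29, 17.01 and 13.4% of the 529, and over all tested peaks the shares were 8.32, 5.84, 5.65, 7.69 and 8.35%. DESeq2 called 1 peak for Dex in WT, at Cox10, an enzyme of haem a synthesis, 6 between genotypes in control, at Dhodh, Foxred1, Mrpl17, Mrpl18, Mrps18b and Tfam, and 2 under Dex, at Sdhaf1 and Tfam, which encodes the packaging and transcription factor of mitochondrial DNA; its backgrounds in these comparisons were 0.641, 0.243 and 0.244%. Limma-voom called 2 for Dex in WT, at Ppargc1a and Sdhaf1, and 1 between genotypes under Dex, at Sdhaf1, on backgrounds of 0.512% and 0.244%.

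In control, the median genotype difference of these lists was between -0.18 (the mitochondrial ribosome) and -0.23 (complex IV assembly) under TMM, with complex II, whose succinate dehydrogenase subunits feed electrons to ubiquinone, also at -0.18. It was between -0.03 (transcription and biogenesis) and -0.11 (complex IV assembly) with the concentration share as a covariate. The transcription and biogenesis list, which holds Tfam, Nrf1, Gabpa and Ppargc1a, had a median Dex change in WT of 0.10 under TMM and -0.00 with the covariate, and in cKO of 0.11 and 0.02. These values lie within the range of the members' role medians in the same comparisons and fits.

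The member peaks other than the strongest did not share the lower genotype values. These 145 tested peaks, set apart by level and not by place, had median genotype differences of 0.03 in control and 0.01 under Dex, with 74 and 76 above 0. Their median Dex changes were 0.01 in WT and 0.02 in cKO. All tested peaks, most of them weak, had genotype medians of 0.01 in control and -0.001 under Dex. Whether place matters apart from level was not tested. A few of the 145 are strong. Ndufa6 has a peak of 21.8 CPM (46.1 CPM per kb) 2592 bases from its start, Cox5a one of 18.2 CPM at 4510 bases, Atp5c1 one of 17.5 CPM at 6416 bases, while Atp5d has one of 25.3 CPM at -3954 bases and Cox7a2 one of 16.9 CPM at -12485 bases, where a minus sign places the peak upstream of the nearest annotated start.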

How the data were processed

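ATAC-seq was analysed in 12 mouse libraries, 3 in each of 4 groups given by the labels. The authors deposited 1 table of raw read counts over 222105 joint peaks. The submitters' processing notes list featureCounts 2.1.1, Genrich 0.6.1, Bowtie2 2.3.5, Trimmomatic 0.39, SAMtools 1.3, deepTools 3.5.6 and Picard 2.18.27, and the build mm10. Their settings, including any shift of reads for the transposase, were not given in the sources used here. A joint peak list gives every library the same regions, whose number and width do not follow a library's depth.

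The 202587 peaks kept by filterByExpr (minimum count 10, minimum total 15) were tested with edgeR 4.0.16 (robust quasi-likelihood, TMM scaling, R 4.3.3) on all 12 libraries, with 1 coefficient per group and 8 residual degrees of freedom. Adjusted p-values are Benjamini-Hochberg values across the tested peaks, and SE is the absolute log2 change divided by the square root of F. Of the 249 member peaks 18 were not tested. CPM are TMM-scaled. The code was tested on simulated data.

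The members and gene lists were chosen with earlier results of these data known. Peaks named with values are those called in any comparison, the 3 smallest p in each, the highest and lowest gene of each role, isoform pairs and genes without a peak; those described for their place relative to the start, the 12 genes below WT in both genotype comparisons and the printed sequences were chosen after their values were seen. Alternatives were total counts, DESeq2 size factors, loess offsets (span 0.3), DESeq2 1.42.0, limma-voom (limma 3.58.1), no filter, only the groups compared, a replicate block, the concentration share as covariate, windows of 0 and 5 kb, and leaving out each library. Counting error is small at start peaks and large at peaks near 1 CPM.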

Additional observations from a re-analysis of the deposited data

How the results depend on the processing

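For the number of member peaks called, their median changes and their median level, 221 alternative values stayed within 1.5 times the count or within the spread between libraries, and 8 did not. For median changes that spread was 0.109 on the log2 scale, wider than the medians for Dex in WT (0.09) and the interaction (-0.03). A change of sign there thus counted as unchanged, as for Dex in WT with the covariate (-0.01). With DESeq2, 0 member peaks were called for Dex in WT, since the Ndufa12 peak received no adjusted p, and 1 was called between genotypes in control, at Uqcrq. Between genotypes under Dex, 1 was called with loess offsets, 1 with the replicate block (edgeR adjusted p = 0.0280 at the Ndufaf2 inner peak) and 1 without the third WT Dex library, in each case that peak. Over all tested peaks these 3 fits called 988, 1017 and 454. The median genotype difference in control was -0.075 with loess offsets and -0.053 once the concentration share entered as a covariate, and under Dex -0.0095 in that fit; the cause of these shifts was not tested.

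Leaving out single libraries gave 1 to 1 called peaks for Dex in WT and 0 to 1 between genotypes under Dex. The median then ranged from 0.05 to 0.16 for Dex in WT, from 0.09 to 0.20 for Dex in cKO, from -0.13 to 0.03 for the interaction, from -0.21 to -0.13 between genotypes in control and from -0.22 to -0.07 under Dex. The adjusted p at the Ndufa12 peak ranged from 0.000275 to 0.0215 over its alternatives.

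The replicate numbers were not taken as pairs: the labels tie them to no shared animal or day, and deviations of same-numbered libraries correlated at -0.19 to 0.26 (median 0.04, 18 pairs). Still, 8 of 12 libraries correlated best with a library of their own number, a hint from the data and not from the design. With the replicate block the medians were 0.08, 0.11, -0.04, -0.19 and -0.16 in the order Dex in WT, Dex in cKO, interaction, genotype in control and genotype in Dex.

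Over all peaks the number called differed by more than 1.5 times under several alternatives: for Dex in WT 1081 with TMM, 1757 with total counts, 2135 with loess offsets and 2244 with the covariate; between genotypes under Dex 345, 894, 988 and 1797, and 1017 with the replicate block. The block gave 1747 for Dex in WT. Between genotypes in control the 21 became 493 with DESeq2, 173 with the block and 54 without the third cKO Dex library. For Dex in cKO the 6 became 314 without that library. For Dex in WT the count fell to 507 without the first WT Dex library. Low read numbers limit what can be called at inner peaks, as the 6, 11 and 10 reads of the Ndufa12 peak in WT control show.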
